A study of Arabidopsis thaliana with 10 samples.

Results

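A set of 10 genes of flavonoid synthesis and seed coat pigmentation of Arabidopsis thaliana was followed in hand-dissected endosperm, the nutritive tissue of the seed. They were picked by gene identifier, 10 of 37328 genes in the expression tables and 10 of 37336 in the allele tables. The rule used no measured value, but the set was put together with earlier results of these data known. The members were TT4, TT5, F3H, TT7, TT3, BAN, TT12, AHA10, TT10 and TT1. In both crosses a Ler mother was pollinated by a 4N (tetraploid) Col father, wild type for the group that the labels call lethal paternal excess and nrpd1 for the one they call viable paternal excess. NRPD1 is the large subunit gene of RNA polymerase IV, which makes precursors of small RNAs, and the labels name no other allele and no treatment. Each group had 5 samples in 3 replicates, because replicates 1 and 2 came in 2 parts each. Seeds were from crosses of multiple individuals, so a library is a pool. The labels do not say whether replicates were separate crosses, so the spread that p-values measure here may be technical. Labels give 7 days after pollination for 9 samples and 8 days for 1 part of lethal replicate 1, while the text of the series gives 6 days. For a balanced group, 5 replicates of other series were available as values the authors had pooled, with no spread of its own, so series and parental dosage cannot be told apart in comparisons with it. Its genotype labels were not used here. The file headers take Col as its father, with 33% paternal reads expected.

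Flavonoids are built from phenylalanine through the general phenylpropanoid enzymes and then through a chain of dedicated enzymes. In the Arabidopsis seed the end products of one branch, proanthocyanidins, accumulate in the inner layer of the seed coat and turn brown when oxidised. Mutants that lack them have pale seeds, hence the name transparent testa (TT). The seed coat grows from the integuments of the mother and carries no paternal genome, whereas endosperm and embryo carry both. Reads assigned to the Ler allele are called maternal here and reads assigned to the Col allele paternal.

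The 6 libraries held 5692640 to 7983669 allele-assigned gene reads, and the balanced pool held 11895484. Maternal reads made up 47.02% to 48.9% of them per library and 64.3% in the balanced pool. Replicate 3 stood apart in both groups: 15829 and 13465 genes had a read, against 16560 to 17246 in the other 4 libraries. Intervals and zero-count limits below are exact (Clopper-Pearson, 95%) or the 3 reads that a count of 0 allows, and they cover counting error only. Of 11 endosperm markers fixed by name, 9 or 10 had a read in each library. Their summed level was 2025 to 4320 CPM (reads per 1000000, scaled between libraries) in lethal and 2100 to 5322 CPM in viable libraries. The authors' deposited table listed HDG3 and PHE1, the endosperm markers with the highest values in lethal endosperm, at 679 and 429 FPKM (fragments scaled to gene length and depth) there.

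Nearly all reads of most pigment genes were maternal. Of the 10 genes, 7 passed the count filter, and 6 of these (TT4, TT5, TT7, TT3, BAN and TT10) carried more maternal than paternal reads in lethal and again in viable endosperm, by edgeR's quasi-likelihood test against equal shares with Benjamini-Hochberg adjustment over 12674 genes. Over all genes tested, 9.03% were called maternal and 11.2% paternal in lethal and 7.70% and 10.6% in viable endosperm. The seventh gene, TT1, was not called in either group. The median of the mean maternal share of the 7 genes was 96.2% in lethal and 96.9% in viable endosperm, beside 49.7% and 49.5% over all genes tested. In lethal endosperm 5 of the 7 reached a mean of 95%, against 3.23% of all genes, and in viable endosperm 4 of 7 against 3.25%. TT12 and AHA10 had no allele read in any library or in the pool, and F3H had 1 read in lethal, 1 in viable and 8 in the pool, so no share could be given for these 3.

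**Figure D1:**
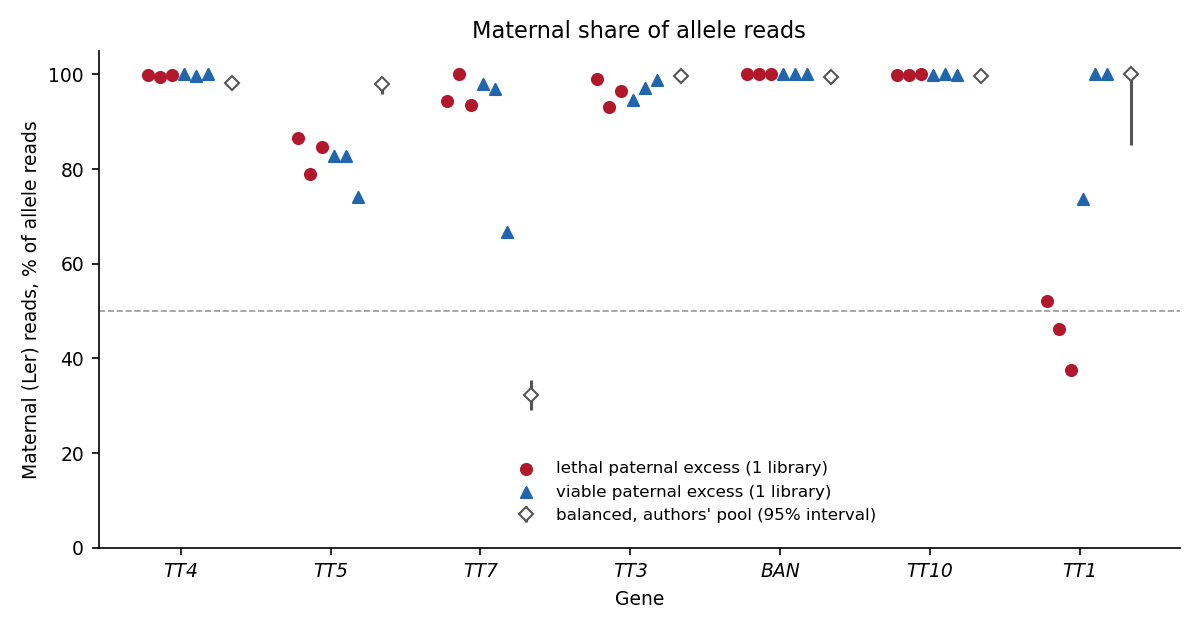
Maternal share of allele reads (percent, y axis) for the 7 genes that passed the count filter (x axis, in pathway order). Circles and triangles are single libraries, open diamonds the authors' balanced pool with its exact 95% interval, and the dashed line marks 50%. TT4, BAN and TT10 lie above 99% in all 6 libraries, TT5 between 74.1% and 86.5%, and TT7 lies at 32.2% in the pool but at 93.5% or above in 5 of 6 libraries.

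TT4 (AT5G13930, TAIR10 chromosome 5, 4488476 to 4500735) encodes chalcone synthase, the first dedicated enzyme of the pathway. Maternal reads of TT4 numbered 615, 467 and 479 in lethal replicates 1, 2 and 3, against 1, 3 and 1 paternal reads. In viable replicates 1, 2 and 3 they numbered 332, 420 and 111, against 0, 1 and 0. The maternal share was thus 99.7% ± 0.263 (SD, n = 3) in lethal and 99.9% ± 0.137 (SD, n = 3) in viable replicates, with edgeR adjusted p = 1.72e-07 and 3.23e-07. Positions here and below are TAIR10 loci of the authors' files. The locus they give for TT4 also spans AT5G13940, AT5G13950 and AT5G02125. The sources used here do not say whether counting used strand, so the level of TT4 is uncertain to that extent.

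TT5 (AT3G55120, chromosome 3, 20430059 to 20431597) encodes chalcone isomerase, which closes the ring of the chalcone. Of the called pigment genes, TT5 was the one with the highest paternal share in the summed reads of either group. Its paternal reads were 20 of 148, 44 of 210 and 44 of 287 in lethal replicates 1, 2 and 3. In viable replicates 1, 2 and 3 they were 22 of 127, 31 of 180 and 36 of 139. The groups overlapped, and no library fell below 13.5% paternal. The maternal share was 83.4% ± 3.88 (SD, n = 3) in lethal libraries (edgeR adjusted p = 0.000177). In viable libraries it was 79.9% ± 4.98 (SD, n = 3; edgeR adjusted p = 0.000624). In the balanced pool 7 of 353 TT5 reads were paternal, a share of 1.98% with an interval of 0.801% to 4.04%. The lowest interval bound among the 6 libraries was 8.45%, in lethal replicate 1, so counting error alone does not span the gap to the pool, whose spread between replicates is unknown.

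TT7 (AT5G07990, chromosome 5, 2560328 to 2563137) encodes the flavonoid hydroxylase that adds a hydroxyl group to the B ring. Paternal reads of TT7 were 6 of 106, 0 of 136 and 7 of 107 in lethal replicates 1, 2 and 3. They were 2 of 99, 4 of 126 and 10 of 30 in viable replicates 1, 2 and 3. Viable replicate 3 stood alone at 66.7% maternal (interval 47.2% to 82.7%), while the other 5 libraries lay between 93.5% and 100%. The maternal share was 95.9% ± 3.55 (SD, n = 3) in lethal libraries (edgeR adjusted p = 0.00376). In viable libraries it was 87.2% ± 17.8 (SD, n = 3; edgeR adjusted p = 0.0182). The log2 ratio of maternal to paternal reads in viable endosperm was 3.63. The viable call was lost without viable replicate 1 (log2 ratio 2.88, edgeR adjusted p = 0.132), without viable replicate 2 (2.95, 0.131) and with limma on the allele ratio (3.67, 0.118). Without viable replicate 3 the ratio was 5.15 (edgeR adjusted p = 0.000169).

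The balanced pool differed from both paternal-excess groups in the parent that TT7 reads came from. There 594 of 876 TT7 reads were paternal, 67.8% with an interval of 64.6% to 70.9%, against 3.72% (2.00% to 6.29%) of the summed lethal reads and 6.27% (3.63% to 9.99%) of the summed viable reads. Paternal TT7 reads came to 49.9 RPM (reads per 1000000 allele reads) in the pool, 0.571 RPM in lethal and 0.857 RPM in viable endosperm. Maternal TT7 reads came to 23.7, 14.8 and 12.8 RPM. The authors' deposited table listed TT7 at 8.80 FPKM in the pool, at 10.2 in lethal and at 7.40 in viable endosperm, with no call, so the larger number of allele reads in the pool had no counterpart in its FPKM. The cause of this disagreement between the files was not tested.

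**Figure D2:**
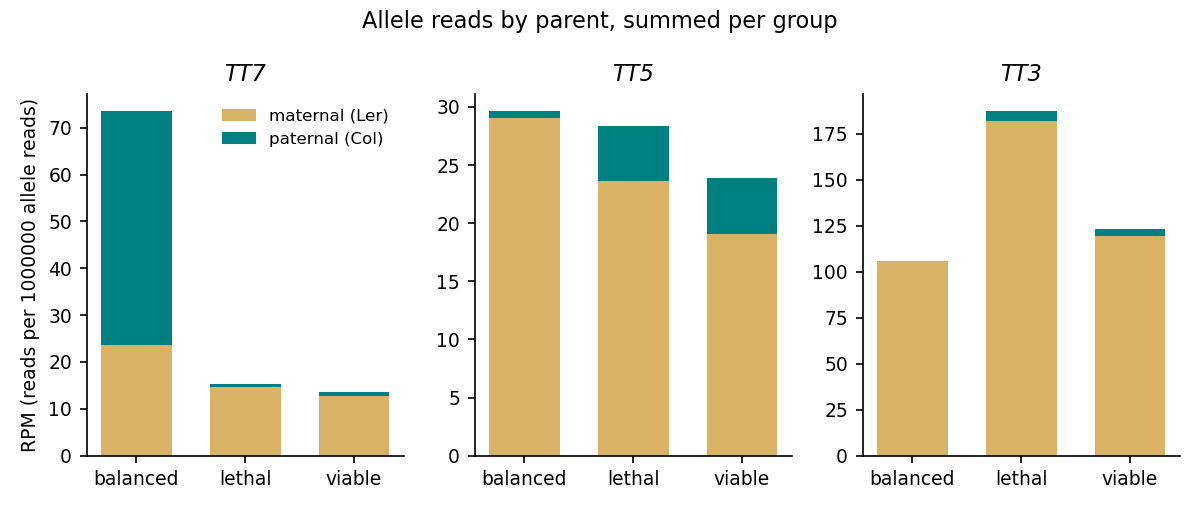
RPM, reads per 1000000 allele reads (y axis, linear from 0, scaled differently in each panel) of TT7, TT5 and TT3, summed per group, with maternal reads below and paternal reads above. Paternal TT7 reads make up most of the balanced bar and a thin band in the others, while paternal TT5 reads stand at 0.588 RPM in the pool, 4.75 in lethal and 4.76 in viable endosperm.

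TT3 (AT5G42800, chromosome 5, 17164093 to 17166032) encodes dihydroflavonol reductase, at the entry of the anthocyanin and proanthocyanidin branch. Maternal TT3 reads numbered 1696, 666 and 1770 in lethal replicates 1, 2 and 3, beside 17, 49 and 66 paternal reads. In viable replicates 1, 2 and 3 they numbered 749, 670 and 806, beside 42, 20 and 9. The paternal share ranged from 0.992% to 6.85% over lethal and from 1.10% to 5.31% over viable libraries, so the groups overlapped. The maternal share was 96.2% ± 2.94 (SD, n = 3) in lethal and 96.9% ± 2.11 (SD, n = 3) in viable replicates, with edgeR adjusted p = 3.17e-05 and 4.29e-05. In the pool 3 of 1261 TT3 reads were paternal, 0.238% with an interval of 0.0491% to 0.694%, below the share of every library. The intervals of lethal replicate 1 (from 0.579%) and viable replicate 3 (from 0.506%) reached into that of the pool.

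BAN (AT1G61720, chromosome 1, 22790966 to 22792803) encodes anthocyanidin reductase, which makes the building blocks of proanthocyanidins and marks the innermost layer of the seed coat. Its 434, 398 and 1540 reads in lethal replicates 1, 2 and 3 and its 429, 469 and 858 reads in viable replicates 1, 2 and 3 were all maternal. A count of 0 paternal reads allows a share of up to 0.754% in lethal replicate 2, which had the fewest BAN reads. In lethal replicate 3, which had the most BAN reads, it allows up to 0.195%. Against a floor of 3 paternal reads over each group, maternal BAN reads were at least 791-fold higher in lethal and at least 585-fold higher in viable endosperm (edgeR adjusted p = 5.34e-06 and 6.77e-06). In the pool 9 of 1704 BAN reads were paternal, 0.528% with an interval of 0.242% to 1.0003%.

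TT10 (AT5G48100, chromosome 5, 19489327 to 19492744) encodes a laccase-like enzyme that oxidises proanthocyanidins in the seed coat. It had the most allele reads of the 10 genes, 12067 summed over lethal and 6787 over viable libraries. Paternal TT10 reads numbered 7, 4 and 0 in lethal and 3, 0 and 3 in viable replicates 1, 2 and 3. The maternal share was 99.9% ± 0.0615 (SD, n = 3) in lethal and 99.9% ± 0.0772 (SD, n = 3) in viable replicates, with edgeR adjusted p = 1.13e-08 and 1.64e-08. In the pool 27 of 7665 reads were paternal, 0.352%.

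TT1 (AT1G34790, chromosome 1, 12763902 to 12765686) encodes a zinc finger protein needed for pigmentation of the seed coat endothelium. It was the pigment gene of the 7 with the fewest reads. Maternal TT1 reads were 12 of 23, 18 of 39 and 9 of 24 in lethal replicates 1, 2 and 3. They were 14 of 19, 6 of 6 and 12 of 12 in viable replicates 1, 2 and 3. The shares lay at 37.5% to 52.2% in lethal and at 73.7% to 100% in viable libraries. How many of all genes have shares that separate in this way was not counted. The means were 45.3% ± 7.38 (SD, n = 3) in lethal and 91.2% ± 15.2 (SD, n = 3) in viable replicates. The difference of 3.42 ± 1.43 (log2 ratio of maternal to paternal reads, SE) did not pass the edgeR test (unadjusted p = 0.0381, adjusted p = 0.971). In the pool all 23 TT1 reads were maternal, with a lower bound of 85.2%.

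No pigment gene was called different in maternal share between lethal and viable endosperm, at an adjusted p under 0.05. Among all 12674 genes 8 were called, 0.0631%, and with the replicate number as a block 6 were called, 0.0473%, none of them a pigment gene. At an unadjusted p under 0.05 there was 1 pigment gene of 7, TT1, beside 525 of all 12674 genes. Estimated differences (viable minus lethal, log2 of the maternal to paternal ratio) were 1.17 ± 1.003 (SE) for TT4, -0.33 ± 0.39 for TT5, -1.06 ± 1.30 for TT7 and 0.11 ± 0.66 for TT3, with edgeR adjusted p of 0.971 or above. For TT10 the difference was -0.0026, and -0.067 ± 1.08 (SE) with the replicate number as a block. With errors of this size, similar shares in the 2 groups were not shown. BAN had no paternal read in any library, so its difference could not be estimated and the test could not decide on it.

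No single pigment gene was called different in level between lethal and viable endosperm. The sum over the 10 genes was 1118, 780 and 922 CPM in lethal and 686, 587 and 726 CPM in viable replicates 1, 2 and 3. Each viable sum was below the lethal sums, but the sum was not tested. How often sums of other gene sets separate in this way was not counted. The sum rests mainly on TT10 and TT3, and in replicate 3 also on BAN (233 CPM in lethal and 153 CPM in viable endosperm). TT10 made up 751 of the 1118 CPM in lethal replicate 1, while in lethal replicate 3 TT3 (278 CPM) lay above TT10 (274 CPM). Viable and lethal endosperm were compared on maternal plus paternal reads to ask whether a paternal nrpd1 mutation changes these genes. None of the 7 testable genes was called, and none had an unadjusted p under 0.05. Over all 12674 genes edgeR's quasi-likelihood test called 0 (0.00%), with 865 at an unadjusted p under 0.05, and the same test with the replicate number as a block called 117 (0.923%), no pigment gene among them. DESeq2 called 199, also without a pigment gene. On simulated counts the unblocked test recovered 0% of 2-fold and 9% of 4-fold changes over 12260 genes, so a change of that size would mostly have been missed. The median log2 difference of the 7 genes was -0.51, beside -0.047 over all genes tested. In bulk tissue, fewer cells of a type and less RNA per cell cannot be told apart.

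TT4 stood at 74.3, 61.1 and 72.8 CPM in lethal replicates 1, 2 and 3 and at 53.4, 60.1 and 19.8 CPM in viable replicates 1, 2 and 3. All lethal libraries thus lay above all viable ones, narrowly. How many of all genes separate in this way was not counted, so nothing is read from the separation. Its difference of -0.64 ± 0.43 (log2, SE) was not called (edgeR adjusted p = 0.8999). TT3 stood at 207, 93.0 and 278 CPM in lethal and at 127, 98.5 and 146 CPM in viable replicates 1, 2 and 3. The ranges of TT3 overlapped, and its difference of -0.64 ± 0.43 was not called either (edgeR adjusted p = 0.8999). TT10 stood at 751, 524 and 274 CPM in lethal and at 397, 318 and 375 CPM in viable replicates 1, 2 and 3. The lethal libraries of TT10 spread on both sides of the viable ones, with a difference of -0.51 ± 0.41 (edgeR adjusted p = 0.918).

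BAN stood at 52.3, 51.8 and 233 CPM in lethal and at 69.0, 66.9 and 153 CPM in viable replicates 1, 2 and 3. Replicate 3 was the highest library of its group for BAN in both groups. The BAN difference was -0.22 ± 0.64 (log2, SE; edgeR adjusted p = 0.993). It was 0.42 without both replicate 3 libraries and 0.052 ± 0.27 with the replicate number as a block. Its direction thus changed with the libraries and the model used. Without lethal replicate 3 alone it was 0.88, and without viable replicate 3 alone -0.72. TT5 stood at 17.8, 27.3 and 43.5 CPM in lethal and at 20.4, 25.7 and 24.8 CPM in viable replicates 1, 2 and 3, and its difference of -0.32 ± 0.40 became 0.078 without replicate 3. TT7 stood at 12.8, 17.7 and 16.2 CPM in lethal and at 15.9, 17.98 and 5.36 CPM in viable replicates 1, 2 and 3. Its lowest library was viable replicate 3, and its difference of -0.25 ± 0.49 became 0.20 without replicate 3. TT1 stood at 2.77, 5.07 and 3.64 CPM in lethal and at 3.06, 0.856 and 2.15 CPM in viable replicates 1, 2 and 3, a difference of -0.92 ± 0.69 with overlapping ranges (edgeR adjusted p = 0.908).

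**Figure D3:**
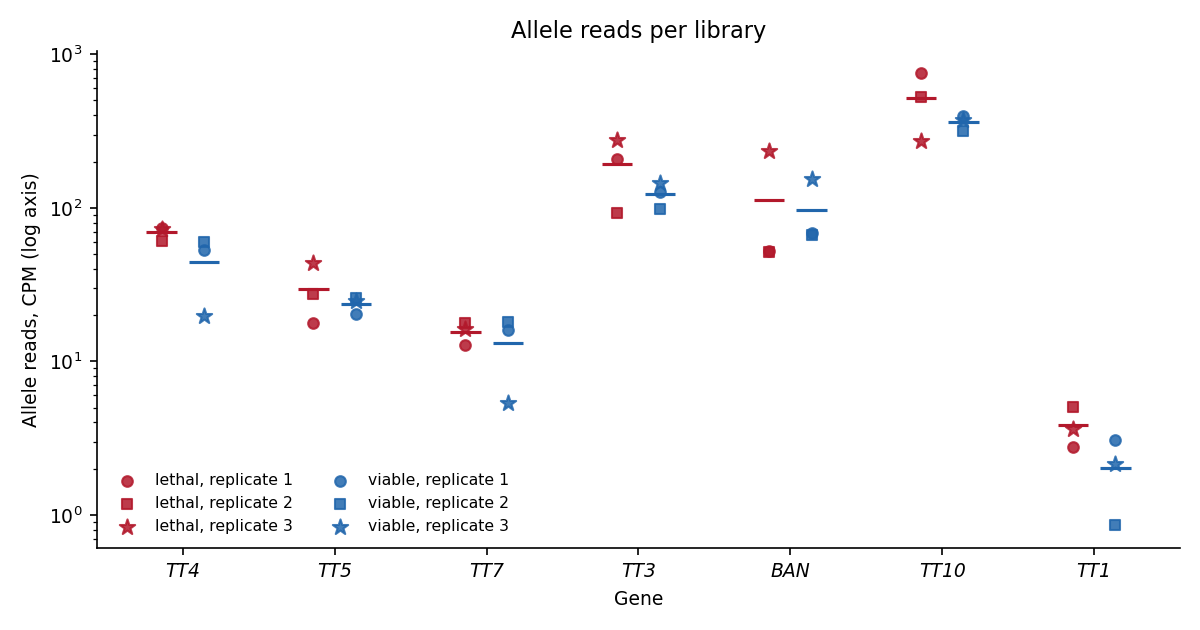
Allele reads of both parents in CPM (log axis) for the 7 genes in single libraries, with bars at the group means. Symbols give the replicate, and the stars show replicate 3, highest for BAN in both groups (233 and 153 CPM), lowest for TT10 in lethal (274 CPM) and lowest for TT4 and TT7 in viable endosperm (19.8 and 5.36 CPM).

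Ratios of read counts among TT10, BAN, TT4 and TT3 changed from library to library, and these changes were not tested. In lethal replicates 1 and 2 TT10 had 14.4 and 10.1 reads for each read of BAN, and in lethal replicate 3 it had 1.18. In viable replicates 1, 2 and 3 the same ratio of read counts was 5.75, 4.74 and 2.44. BAN had 0.705, 0.847 and 3.21 reads for each read of TT4 in lethal and 1.29, 1.11 and 7.73 in viable replicates 1, 2 and 3. In both groups replicate 3 thus had the lowest ratio of TT10 to BAN and the highest ratio of BAN to TT4. The ratio of TT3 to TT4 was 2.78, 1.52 and 3.825 in lethal and 2.38, 1.64 and 7.34 in viable replicates 1, 2 and 3. It was also highest in replicate 3 of both groups. TT5, TT7 and TT1 were not compared in this way.

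Paternal-excess endosperm was compared with the balanced pool to ask what a 4N father changes. In the authors' deposited table F3H and BAN were lower in both crosses, and no pigment gene was higher. That is 2 of 9 tested genes in each comparison, where 16.6% of all tested genes were lower and 17.5% higher in lethal, and 12.9% lower and 14.2% higher in viable endosperm. The median log2 difference of the 9 genes (FPKM plus 1) was 0.21 in lethal and -0.23 in viable endosperm, beside 0.063 and 0.027 over all tested genes. Both comparisons share the balanced pool. Markers of the seed tissues were read in both comparisons. By the q-values of the authors' deposited table, 1 of 16 other seed coat markers was higher and 2 were lower than balanced in each cross. These counts were no larger a part of the list than the shares over all tested genes given above. Of 10 tested endosperm markers 5 were higher and 2 lower in lethal, and 5 higher and 1 lower in viable endosperm. Of the embryo markers 4 of 12 were higher and 4 lower in lethal, and 2 of 11 higher and 5 lower in viable endosperm. The seed coat markers called, named here after their values were seen, were CSLA2 (20.2, 88.1 and 115 FPKM in balanced, lethal and viable samples of the authors' deposited table), PMEI6 (34.7, 5.89 and 10.4) and PER36 (8.03, 0.976 and 2.88). The endosperm marker PHE1 was 286-fold and 226-fold higher by the authors' deposited table. The part of these shifts in tissue markers in the values of F3H and BAN was not tested. Each table gives 1 value per group, so the spread behind an FPKM level and behind the order of levels is unknown. FPKM levels below are listed for balanced, lethal and viable endosperm in that order.

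F3H (AT3G51240, chromosome 3, 19025110 to 19026872) encodes flavanone hydroxylase, which forms dihydroflavonols. The authors' deposited table listed F3H at 53.5, 5.15 and 9.02 FPKM. By these values it was 10.4-fold lower in lethal (q = 0.00035) and 5.94-fold lower in viable endosperm (q = 0.00048). Its locus overlaps AT3G51238, so its reads could include those of that gene where counting ignored strand. For enzymes upstream and downstream of it, the authors' deposited table listed TT5 at 8.92, 15.4 and 12.3 FPKM and TT3 at 49.0, 56.9 and 35.5 FPKM, with no call.

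The authors' deposited table listed BAN at 28.1, 12.2 and 9.96 FPKM. By these values it was 2.29-fold lower in lethal (q = 0.0285) and 2.83-fold lower in viable endosperm (q = 0.00048). Its allele reads came to 143 RPM in the pool, 104.2 RPM in lethal and 94.0 RPM in viable endosperm. Among single libraries, 233 and 153 CPM in the replicate 3 libraries stood beside 51.8 to 69.0 CPM in the other 4.

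The rest showed no call against balanced in the authors' deposited tables. TT4 had the highest FPKM of the 10 genes in every group, with 93.8, 99.7 and 66.6 FPKM in the authors' deposited table. Next in each group of the authors' deposited table was TT10. TT1 stood at 1.09, 2.51 and 1.07 FPKM in the authors' deposited table, with q = 0.110 in lethal and 0.980 in viable endosperm. AHA10 (AT1G17260, chromosome 1, 5904058 to 5908898), a proton pump that energises vacuolar loading of pigment precursors, stood at 0.433, 0.826 and 0.510 FPKM in the authors' deposited table. TT12 (AT3G59030, chromosome 3, 21819040 to 21824425), the transporter that carries precursors into the vacuole, stood at 0.0686, 0.101 and 0.148 FPKM and was not tested against balanced by the authors' deposited table. Its locus there also spans AT3G59040 and AT3G09175. Between viable and lethal endosperm no pigment gene was called in the authors' deposited table, where 2.51% of tested genes were.

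**Figure D4:**
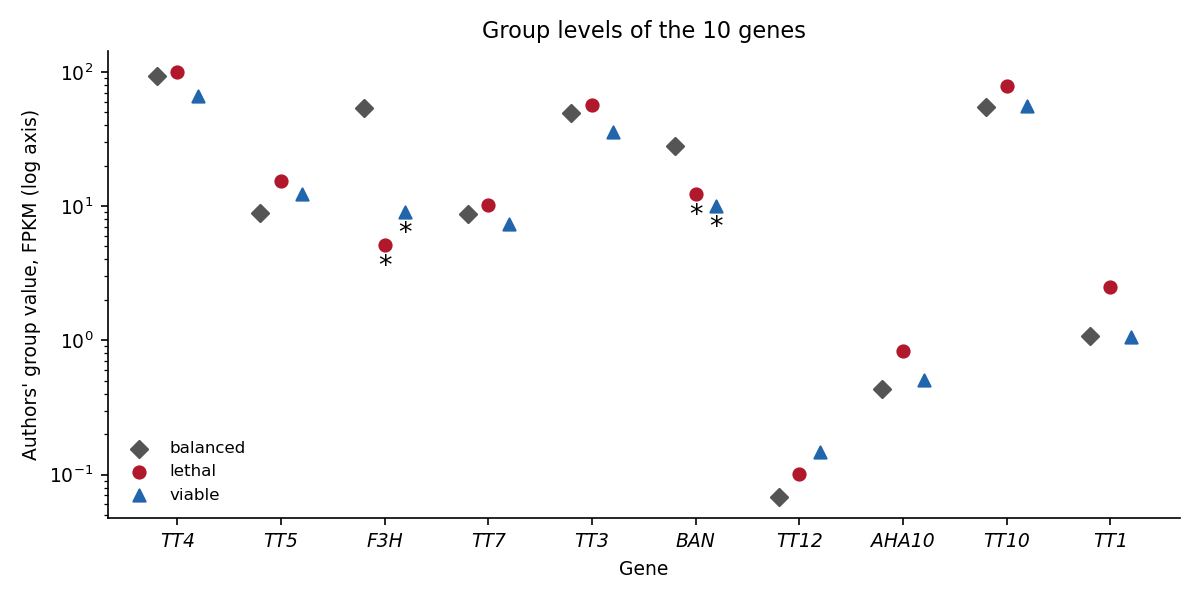
Authors' FPKM per group (log axis, 1 value per group and no error) of the 10 genes in pathway order, then transport, oxidation and regulation. Asterisks mark values called different from balanced by the authors' q. F3H lies at 53.5 in balanced against 5.15 and 9.02, and BAN at 28.1 against 12.2 and 9.96.

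Other genes of the pathway were taken from a list of 32. By the q-values of the authors' deposited table, 0 of 28 tested genes were higher and 5 lower in lethal than balanced endosperm. In viable endosperm 1 of 27 was higher and 3 lower. Over all tested genes 17.5% were higher and 16.6% lower in lethal, and 14.2% and 12.9% in viable endosperm. The lower calls of the list thus lay near the shares over all tested genes. The median log2 difference was -0.19 in lethal and -0.26 in viable endosperm, beside 0.063 and 0.027 over all tested genes. LDOX, which makes the anthocyanidin substrate of BAN, stood at 45.0, 15.4 and 13.2 FPKM, with q = 0.00286 and 0.00048 in the authors' deposited table. FLS3, of the flavonol synthase family, stood at 14.1, 0.939 and 2.82 FPKM, with q = 0.00035 and 0.00048 in the authors' deposited table. C4H, of the general phenylpropanoid route, stood at 5.80, 1.55 and 1.63 FPKM, with q = 0.0012 and 0.00315 in the authors' deposited table. Lower in lethal endosperm alone by the authors' q were PAL2, the entry enzyme of that route (19.7, 5.49 and 11.2 FPKM), and the glucosyltransferase gene UGT78D2 (14.1, 6.80 and 8.76 FPKM); the difference between the crosses was not called in the authors' deposited table. TT9 stood at 4.79, 8.96 and 9.64 FPKM and was called higher than balanced in viable endosperm alone. Its q in the authors' deposited table was 0.0758 in lethal and 0.0272 in viable endosperm. Between the crosses TT9 was not called there (q = 0.998).

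Maternal calls in this list were 10 of 17 tested genes in lethal and 9 of 17 in viable endosperm, with no paternal call, by edgeR's adjusted p under 0.05. LDOX had 539 lethal and 316 viable reads, all maternal, which allows a paternal share of up to 0.557% and 0.949%. TT19, a glutathione transferase needed for pigment deposition, was 99.4% ± 1.12 maternal in lethal and 99.7% ± 0.550 in viable replicates (SD, n = 3 each). TT8, a bHLH activator of TT3 and BAN, was 99.7% ± 0.434 maternal in lethal and 100% ± 0 in viable replicates (SD, n = 3 each). MYBL2, CHIL, 4CL3, UGT78D1 and C4H were called in both groups, with mean maternal shares of 86.4% to 100%. MYB11 and OMT1 were called in lethal endosperm alone and FLS3 in viable endosperm alone. None of the 3 was called different in share between the groups (adjusted p of 0.971 or above by edgeR). Their estimated differences (viable minus lethal, log2) were 1.55 for MYB11, -0.68 for OMT1 and 4.12 for FLS3, so similar shares were not shown. PAL2, among the pathway genes called lower above, was not called maternal, with 55.1% ± 4.99 in lethal and 53.0% ± 5.66 in viable replicates (SD, n = 3 each).

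Markers of other seed tissues were read the same way. Of 16 other seed coat markers, 12 were tested, and 10 were called maternal and 1 paternal in lethal endosperm and 10 and 0 in viable endosperm. Their summed level was 1113 to 1658 CPM in lethal and 1140 to 1754 CPM in viable libraries. None of the 12 was called different in level by edgeR's test, which called 0 of all 12674 genes, and 1 had an unadjusted p under 0.05. As that test recovered 0% of 2-fold and 9% of 4-fold changes in simulated counts, similar levels were not shown. The 3 with the highest FPKM in lethal endosperm were DP1 (170 FPKM), MUM4 (101) and CSLA2 (88.1) in the authors' deposited table. Of these DP1 was 99.7% to 99.9% maternal over lethal and 99.8% to 100% over viable libraries, and the other pair was not tested. The part of seed coat RNA in the values of the pigment genes was not tested.

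Of 9 endosperm markers tested, 2 were called maternal and 3 paternal in lethal and 1 and 4 in viable endosperm. Summed over the list, 18.4% to 24.2% of the reads of a library were maternal. HDG3 had by far the most of these reads, 49744 in lethal and 52917 in viable libraries, so the sum mostly gives its share. The median of the mean shares of the 9 tested markers was 44.9% in lethal and 48.1% in viable endosperm. Single markers ranged from 0.635% to 97.8% maternal in lethal and from 1.03% to 99.6% in viable endosperm. Neither the calls nor the sum thus stand for endosperm RNA as a whole. HDG3 was 13.5% ± 2.63 maternal in lethal and 11.5% ± 0.416 in viable replicates (SD, n = 3 each). In the balanced pool HDG3 was 14.3% maternal, so its low maternal share was not particular to the paternal-excess groups. PHE1 was 8.998% ± 3.16 maternal in lethal and 7.14% ± 2.09 in viable replicates (SD, n = 3 each). HDG8, the third marker by FPKM (42.7 in the authors' deposited table for lethal endosperm), was 44.9% ± 2.01 maternal in lethal and 48.1% ± 3.86 in viable replicates (SD, n = 3 each). Of 7 embryo markers tested, 0 were called in either direction or group by edgeR's test, with lowest adjusted p of 0.134 in lethal and 0.471 in viable endosperm. Their summed level was 52.6 to 179 CPM in lethal and 70.2 to 104.3 CPM in viable libraries. ATML1, WOX9 and SCR were the embryo list's highest in lethal endosperm, with 63.2, 5.53 and 3.60 FPKM in the authors' deposited table.

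**Figure D5:**
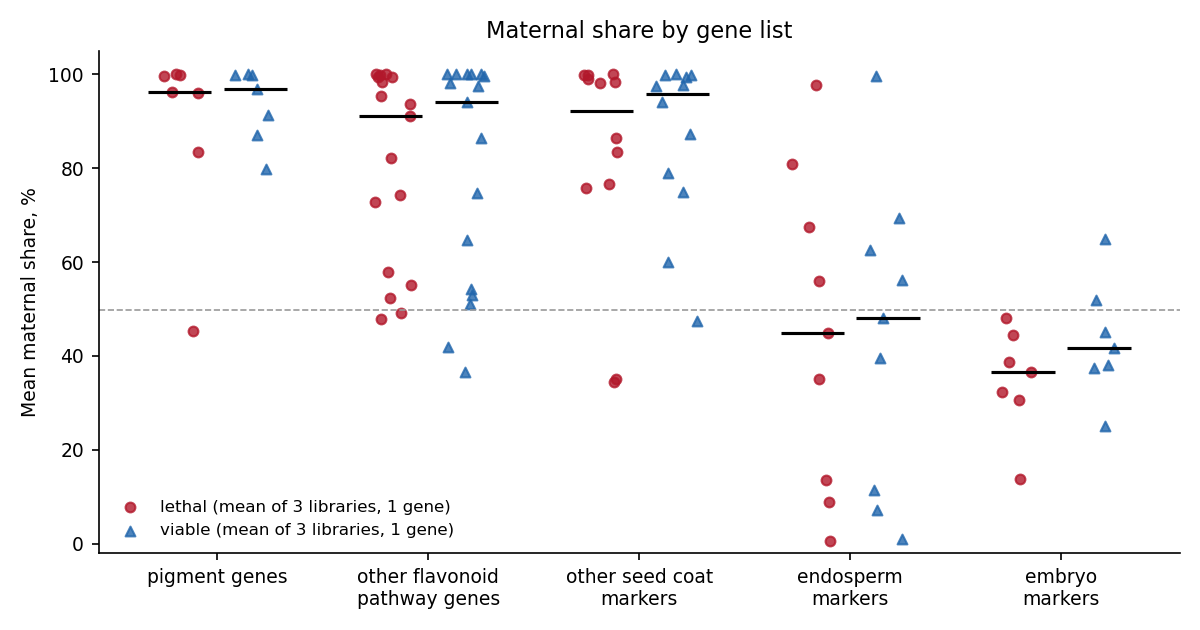
Mean maternal share over 3 libraries (percent, y axis) of each tested gene, by list, with black bars at the list medians and a dashed line at the median of all genes tested in lethal endosperm. Medians in lethal and viable endosperm are 96.2% and 96.9% for the pigment genes, 91.2% and 94.1% for other genes of the pathway, 92.2% and 95.8% for other seed coat markers, 44.9% and 48.1% for endosperm markers and 36.5% and 41.7% for embryo markers.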

How the data were processed

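The members and gene lists (72 other genes in 4 lists) were chosen with earlier results of these data known. Allele tables, as deposited, give read counts per gene and parental allele in each of 6 libraries, and for the balanced group the authors' pooled counts and percent paternal, which equals the share recomputed from those counts. The authors deposited 1 FPKM per group and comparison with a p-value and q-value, and calls against balanced used q under 0.05. Per the submitters' processing notes, Trim Galore, FastQC, TopHat, Bowtie, Cuffdiff and TAIR10 were used; the sources used here give neither versions nor roles. Symbols came from a RefSeq table (82 of 82 matched). The 10 columns of single balanced replicates were not used.

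Maternal plus paternal counts were tested with the quasi-likelihood method of edgeR 4.0.16 under R 4.3.3, with TMM scaling and filterByExpr. Parental shares were tested in one fit of both alleles with the library as a block. An adjusted p under 0.05 was called, and a standard error is the log2 difference divided by the square root of its F. The named genes were all 10 members, every called gene of the pathway list, and at most 3 of each marker list, those with the highest FPKM in lethal endosperm. Fold medians used FPKM plus 1. Locus starts in the files count from 0 and are printed counting from 1. Alternatives were DESeq2 1.42.0, limma 3.58.1, other library sizes and filters, each library left out and the replicate number as a block. Deviations of equally numbered libraries correlated at 0.114, 0.475 and 0.432 over 12674 genes, all above 0.1, the limit set for taking the numbers as pairs. Lethal replicate 2 with viable replicate 1 gave 0.155, above the 0.114 of the replicate 1 libraries. That limit thus does not show that the numbers pair the samples. The main tests and the simulations left the replicate number out, and the block was run as an alternative. A gene with 0 reads lay below 0.376 to 0.527 CPM (per 1000000 reads) per library. In simulated data the allele test recovered 99% of lethal and 100% of viable genes set to a strong maternal share, over 12260 genes. The simulation used the same allelic overdispersion for every gene, so it does not give the recovery for genes that vary more.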

Additional observations from a re-analysis of the deposited data

How the results depend on the processing

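The 6 maternal calls among the pigment genes in lethal endosperm were made under every alternative run, and those in viable endosperm too, except that of TT7 (given above), while TT1 gained a call there with limma (adjusted p = 0.0270). No alternative called a pigment gene in level or in the difference of shares. Over all genes, the level test called 117 genes with the replicate block, 199 with DESeq2, 81 without the count filter and 0 with any library left out. Maternal or paternal calls in lethal endosperm, 2567 in all, came to 1513 to 1665 with a lethal library left out and to 3374 without both replicate 3 libraries. In viable endosperm, 2323 in all, they came to 1564 to 2400 with a viable library left out and to 2887 without both replicate 3 libraries. Genes that differed in share, 8 in all, numbered 0 with limma, 0 to 26 with 1 library left out and 50 without both replicate 3 libraries, an alternative chosen for the parental shares after seeing the data.

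Directions that turned belonged to differences that passed no test, and the cause was not tested. In level, with 1 library left out, BAN ranged from -0.72 to 0.88, TT5 from -0.54 to 0.064 and TT7 from -0.54 to 0.13, and BAN came to 0.052 with the block. Without both replicate 3 libraries BAN came to 0.42, TT5 to 0.078 and TT7 to 0.20. In the difference of shares, with 1 library left out, TT10 ranged from -0.55 to 0.45, TT3 from -0.47 to 0.75 and TT7 from -1.82 to 0.50. Without both replicate 3 libraries TT10 came to 0.68, TT3 to -0.49 and TT5 to 0.017, and with allele totals as library sizes TT10 came to 0.023. The block changed no call of a pigment gene. Shares of TT1 and TT7 rest on 6 to 39 and 30 to 136 reads per library, which limits them.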

Other observations

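In the balanced pool 6 of 7 pigment genes had at least 95% maternal reads, against 5.07% of 12440 genes with reads there, and TT7 was the exception at 32.2%. Among the other genes of the pathway with at least 100 reads in the pool, a choice made after the values were seen, paternal reads made up 55.8% of 138 for FLS1, 48.4% of 122 for MYB12, 41.1% of 474 for TT15, 40.97% of 2253 for PAL2, 39.2% of 102 for 4CL2 and 31.6% of 326 for TT9. The other 7 such genes lay between 0% and 26.1%. FLS1, a flavonol synthase gene, was 58.0% ± 9.83 maternal in lethal and 54.3% ± 13.7 in viable replicates (SD, n = 3 each). MYB12, a regulator of flavonol synthesis, had 19 reads in lethal and 16 in viable libraries and was not tested.

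The general phenylpropanoid gene C4H had 26.1% paternal reads of 740 in the pool and was 91.2% ± 12.5 maternal in lethal and 86.4% ± 5.08 in viable replicates (SD, n = 3 each).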
